A study of Mus musculus with 26 samples.

Results

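The ATP-binding cassette (ABC) genes were examined in the initial segment (IS) of the epididymis, in the caput epididymidis and in the testis of knock-in and wild-type mice. The members were all genes whose symbol in the count tables begins with Abca to Abcg followed by a number, which gave 50 of 23337 genes. The knock-in genotype is called ArKI here, as in the labels, and wild-type (WT) mice were the controls. According to the study, the androgen receptor of ArKI mice has arginines in place of the conserved lysines that accept the protein modifier SUMO. All mice were 3-month-old males on the C57Bl/6N; 129 hybrid background. The knock-in allele came from targeted embryonic stem cells and was present in every cell of the mouse, in the epididymal epithelium, the stroma and the testis alike. RNA sequencing was performed on 5 WT and 5 ArKI samples of the IS, 5 WT and 5 ArKI samples of the caput, and 3 WT and 3 ArKI samples of the testis. The testis libraries were labelled as another sequencing batch than the epididymal ones, so the testis and its batch cannot be told apart, and levels in the testis are set beside the epididymal ones as a description only.

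ABC proteins use ATP hydrolysis to move substrates across membranes, and the letter of the subfamily roughly follows the substrate. ABCA proteins and several ABCG proteins move phospholipids and sterols. ABCB includes the P-glycoproteins that expel drugs and hydrophobic compounds, as well as transporters of mitochondria and lysosomes. ABCC includes the multidrug resistance-associated proteins that export organic anions and the sulfonylurea receptors of ATP-sensitive potassium channels. Most ABCD proteins bring fatty acids into peroxisomes. ABCE and ABCF proteins have the ATP-binding domains but no transmembrane part, and act in ribosome recycling and translation. In the male tract, epithelial efflux pumps take part in the barrier between blood and lumen, and cholesterol efflux from principal cells is part of the environment in which spermatozoa mature.

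The samples held 5829074 to 9770625 counts in the IS, 4125768 to 11913469 in the caput and 14077013 to 21376604 in the testis. The summed level of 6 IS principal cell markers was 6340 to 7230 CPM, a count normalised to library size with TMM factors, in WT IS and 865 to 1140 CPM in WT caput, although the means of Ggt1 (45.0 and 438 CPM) and Srd5a2 (98.0 and 123 CPM) of that list were higher in caput. That of 4 germ cell markers was 950 to 995 CPM in WT testis and at most 3.08 CPM in any WT epididymal sample. ArKI caput replicate 2 was the shallowest library and stood apart, with 1903 CPM of fibroblast markers against 818 to 1101 CPM in the other ArKI caput samples. In these bulk samples, fewer cells of a type and less RNA per cell cannot be told apart.

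The RefSeq sequences before the start sites of Abcb5 and Abcb1b, the ABCB genes with higher levels in ArKI in both segments, are shown first (GRCm38.p6). Each run holds the 250 bases before the start, 5′ to 3′ on the strand of the gene, and capitals mark AGAACA or TGTTCT, a hexamer of steroid hormone response elements, on either strand. Abcb5 lies on the minus strand of chromosome 12, and its upstream bases are chr12:118966422-118966671. Abcb1b lies on the plus strand of chromosome 5, and its upstream bases are chr5:8797897-8798146.
Abcb5: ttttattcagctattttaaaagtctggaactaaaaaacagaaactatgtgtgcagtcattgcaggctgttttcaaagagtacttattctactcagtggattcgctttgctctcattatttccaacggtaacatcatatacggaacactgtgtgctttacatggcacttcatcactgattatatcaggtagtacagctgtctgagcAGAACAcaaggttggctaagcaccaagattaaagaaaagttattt
Abcb1b: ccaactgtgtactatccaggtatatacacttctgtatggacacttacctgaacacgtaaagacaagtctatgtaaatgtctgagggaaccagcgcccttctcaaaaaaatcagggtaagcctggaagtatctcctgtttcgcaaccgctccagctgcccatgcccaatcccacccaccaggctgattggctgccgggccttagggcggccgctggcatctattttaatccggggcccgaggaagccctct
The Abcb5 sequence held 1 hexamer, whose first base lay 45 bases before the start, and the Abcb1b sequence held none. Among 32851 mouse promoters of this length, 16.1% held at least 1 such hexamer, and 9 of the 45 promoters found for 38 of the members did. The Abcb5 promoter had a GC content of 36.8% and 3 CpG dinucleotides, that of Abcb1b 52.8% and 9, and the median of all promoters was 52.4% and 6. A match of these letters is a description of the sequence and not a binding site. Abca6 had no entry in the promoter table.

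The levels of the members in the WT epididymis were ranked first. Levels between genes were compared as CPM divided by the exon length in kilobases (RPKM). Abca2, an endolysosomal transporter linked to sphingolipid and cholesterol handling, was the highest member in both segments, at 39.3 ± 4.88 RPKM in IS and 163 ± 12.0 RPKM in caput (SD, n = 5). In IS it was followed by Abca1 at 35.7 ± 2.76 RPKM, the exporter that loads cholesterol and phospholipid on apolipoproteins, and by the peroxisomal fatty acid transporter Abcd3 at 34.6 ± 1.26 RPKM. The first 3 places in IS did not differ beyond their spread. The lysosomal peptide transporter Abcb9 and Abcc4, an exporter of cyclic nucleotides and prostaglandins, came next, both at a mean of 27.0 RPKM. Abcf3, at 26.95 ± 1.16 RPKM, did not differ from them beyond the spread. In caput, Abca2 stood far above the organic anion exporter Abcc3 (28.3 ± 2.84 RPKM), Abca1 (24.9 ± 0.765 RPKM), the translation factor Abcf3 (24.6 ± 1.05 RPKM) and Abcd3 (22.3 ± 0.557 RPKM), and of these Abcc3, Abca1 and Abcf3 lay within their SDs of each other while Abcd3 lay below Abca1 and Abcf3. At the other end, 8 members in WT IS and 5 in WT caput never passed 3 counts in any sample. They included Abca12 with 0 counts in all 20 epididymal samples and the bile salt pump Abcb11.

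**Figure D1:**
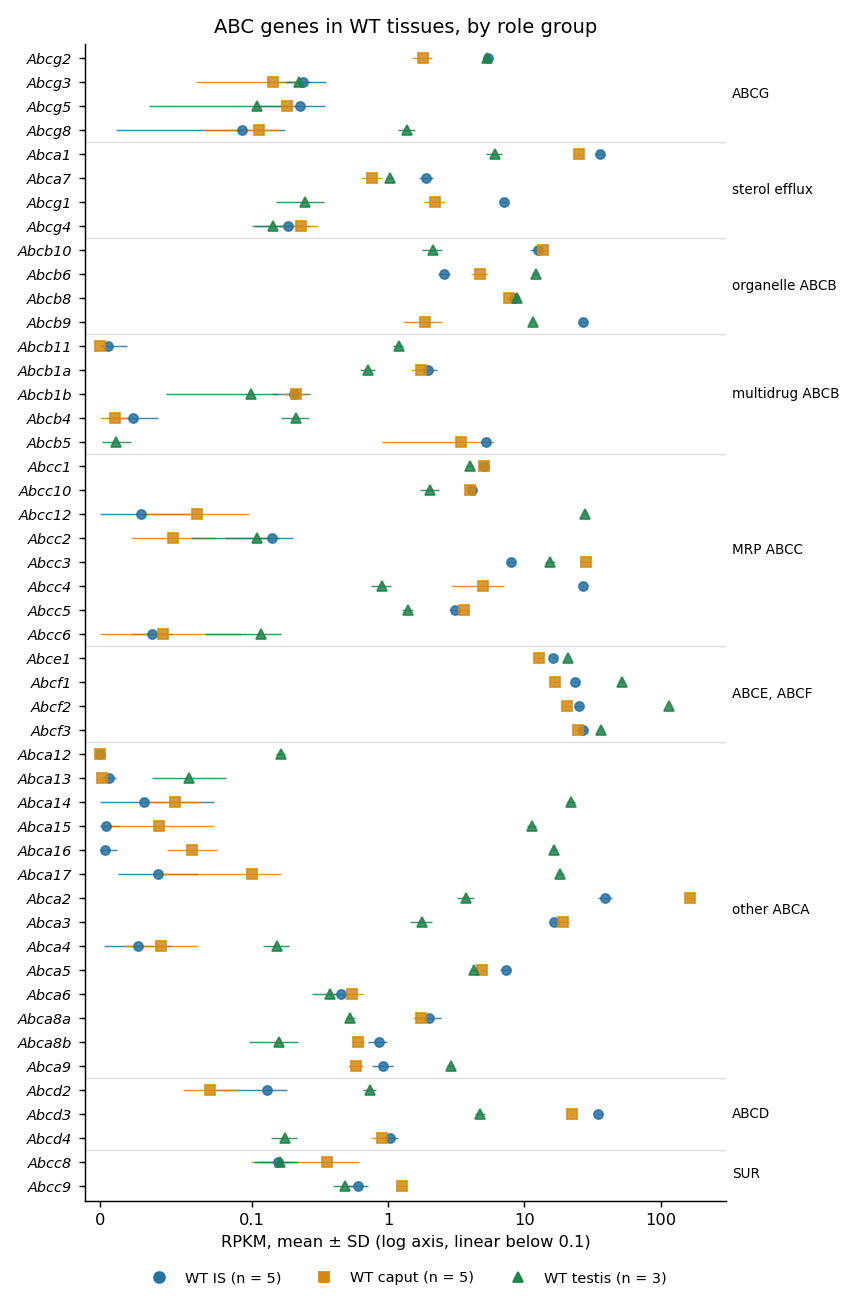
Mean RPKM (x axis, log scale, linear below 0.1) of 48 ABC genes in WT IS, WT caput and WT testis, with bars for the SD over samples and grey lines between the role groups named on the right. Abca2 is the highest gene in both epididymal segments, Abcf2 is the highest in testis, and Abca14 to Abca17 and Abcc12 lie above 10 RPKM only in testis.

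The WT segments were compared with each other. Of 33 members tested between WT caput and WT IS, 7 were higher in caput, where 35.4% of all 13787 genes tested were (edgeR, adjusted p below 0.05), and 15 were higher in IS, where 35.8% of all genes were. By the study's methods the IS and caput of a genotype came from 5 mice, so the segments share animals, which the test did not take into account because no source ties a sample to a mouse. With the replicate number as a block, the same 22 members and Abcc8 passed. Abcb9 had the largest difference, with 151 ± 10.2 CPM in IS and 10.5 ± 3.32 CPM in caput (SD, n = 5), a log2 difference of -3.85 ± 0.147 (SE). Abcc4 was 173 ± 5.40 CPM in IS and 32.0 ± 13.6 CPM in caput, a log2 difference of -2.44 ± 0.250. Abcg1, which moves sterol towards high-density lipoprotein, was 51.9 ± 2.39 and 16.2 ± 2.86 CPM, and Abcg2, the breast cancer resistance protein that exports drugs and urate, was 44.2 ± 2.63 and 14.7 ± 2.5 CPM. The phospholipid transporter Abca7 completed the 5 largest differences in this direction, with 12.9 ± 1.55 CPM in IS and 5.19 ± 0.928 CPM in caput.

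Towards caput, Abca2 rose from 328 ± 40.8 to 1364 ± 100.3 CPM, a log2 difference of 2.06 ± 0.0790, and Abcc3 from 45.3 ± 2.73 to 161 ± 16.2 CPM, a log2 difference of 1.83 ± 0.0666. The sulfonylurea receptor Abcc9 of vascular and muscle potassium channels (5.02 to 10.7 CPM), the porphyrin transporter Abcb6 (13.8 to 25.0 CPM) and Abcc5, another exporter of cyclic nucleotides (log2 difference 0.23 ± 0.0702), were the others among the 5 largest that passed. Abcc8 had a larger log2 difference (1.19) but did not pass (adjusted p = 0.0646), and did so in 5 of 17 alternatives. Higher in IS were all 4 ABCE and ABCF genes and all 3 tested genes for cholesterol and phospholipid efflux. Of all genes tested, 35.8% were higher in IS. Among the pathway genes counted beside the members, Cftr, itself an ABC protein (ABCC7) that conducts chloride, had 190 CPM in WT IS and 13.4 CPM in WT caput, but was not a member by symbol.

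The testis held another set. Abcf2 was the highest member there at 115 RPKM in WT, followed by Abcf1 at 51.7 ± 1.68, Abcf3 at 36.5 ± 0.806, Abcc12 at 27.8 ± 0.813 and Abca14 at 22.1 ± 1.54 RPKM (SD, n = 3). None of these neighbours overlapped within their SDs. Abcc12, an ABCC gene of unsettled substrate, had 179 to 190 CPM in WT testis and at most 0.718 CPM in any WT epididymal sample. The rodent ABCA genes Abca14, Abca15 and Abca16, which lie side by side on chromosome 7, had 59.2 to 141 CPM over the WT testis samples and at most 0.626 CPM in the WT epididymis. Abca17 on chromosome 17 had 95.1 to 107 CPM in WT testis and at most 1.05 CPM in the WT epididymis.

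In the IS, the comparison of ArKI with WT asked which family members depend on the genotype in this segment. Of 34 members tested, 6 rose and 9 fell in ArKI (adjusted p below 0.05), where 15.0% of all 13434 genes tested rose and 14.6% fell. At the thresholds of the study (adjusted p below 0.01 and more than 2-fold), Abca6, Abcb5 and Abcc8 were higher in ArKI (2.72% of all genes) and Abcb1a was lower (1.32% of all genes). The WT and ArKI values did not overlap for 5 members that were higher in ArKI (9.59% of all genes) and for 7 that were lower (10.4%). The median log2 fold change of the members was -0.112, and that of all genes 0.

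In the caput, 6 of 34 tested members rose and 7 fell in ArKI, where 13.7% of all 13726 genes rose and 14.0% fell. Abca6, Abcb1b and Abcb5 were higher by the thresholds of the study (2.43% of all genes) and no member was lower (2.55% of all genes). At an unadjusted p below 0.05, 16 members differed by edgeR, where 37.7% of all genes did. Among the tested members, the values of the genotypes did not overlap for 4 that were higher in ArKI (9.77% of all genes) and 4 that were lower (10.4%). The median log2 fold change was -0.008 for the members and 0.002 for all genes. Of the 33 members tested in both segments, 7 changed in both (21.2%), where 12.6% of the 12969 genes tested in both did, and these were Abca5, Abca6, Abcb1a, Abcb1b, Abcb5, Abcc3 and Abcf2. They went the same way in both except Abcc3.

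**Figure D2:**
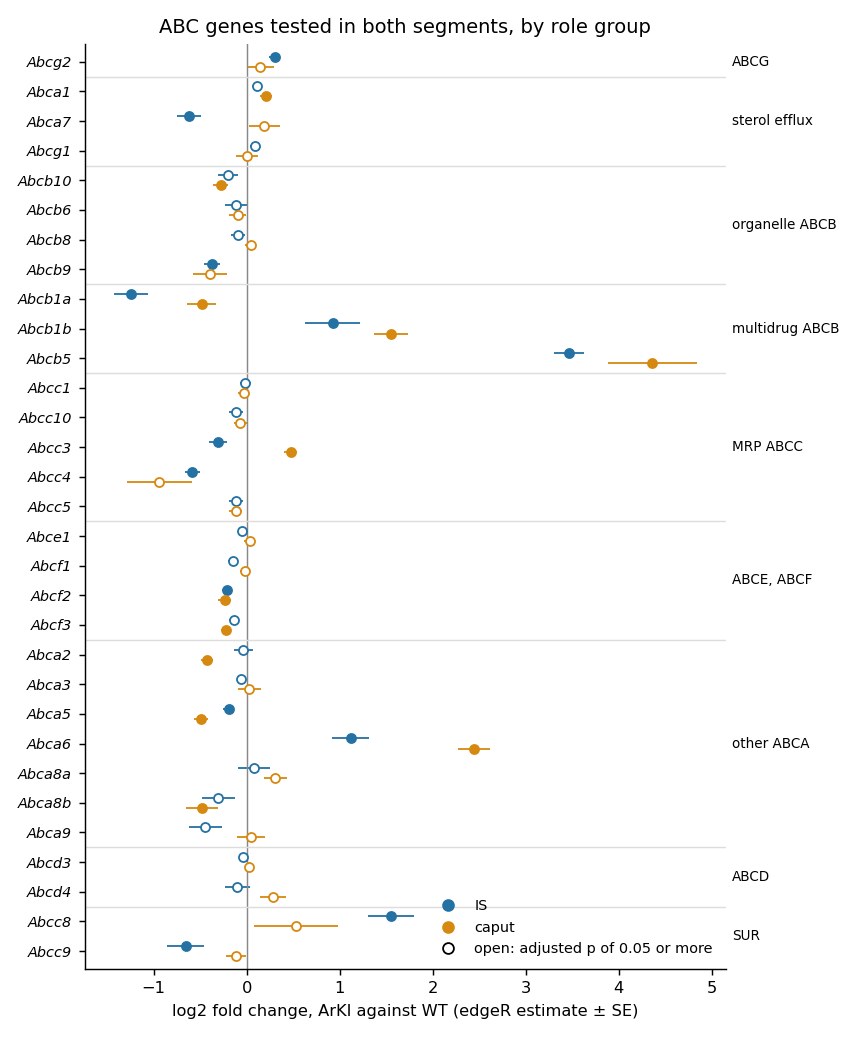
Log2 fold change of ArKI against WT (x axis, edgeR estimate ± SE) for 31 ABC genes tested in both segments, in role groups named on the right, with IS in blue, caput in orange and open points where the adjusted p was 0.05 or more. Abcb5 lies farthest to the right in both segments, Abcb1a and Abcb1b lie on opposite sides of 0, and most members lie within 0.5 of it.

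Abcb5, a P-glycoprotein relative known as a drug exporter of melanoma and limbal stem cells, changed most. Its gene spans 118867824 to 118966421 on chromosome 12 (GRCm38, minus strand), and no exon of another annotated gene overlaps its exons. In WT IS it had 23.4, 23.3, 23.2, 24.5 and 19.4 CPM, and in ArKI IS 239, 329, 182, 251 and 251 CPM. Every ArKI sample was therefore far above every WT sample, with a log2 fold change of 3.46 ± 0.162 (SE, 11-fold, adjusted p = 3.93e-07). In ArKI IS Abcb5 was the highest member of the whole family at 57.2 ± 12.0 RPKM (SD, n = 5).

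WT caput was less even, with 33.0, 7.41, 13.1, 5.0 and 16.4 CPM of Abcb5. The ArKI caput samples had 257, 457, 254, 252 and 340 CPM, and again no ArKI value reached down to a WT value. The log2 fold change was 4.36 ± 0.477 (20.5-fold, adjusted p = 0.000205). It was 4.19 without ArKI caput replicate 2, which had the highest value, and 4.90 without WT caput replicate 1, which had the highest WT value. A difference between the changes in caput and IS did not pass the interaction test (log2 difference 0.88 ± 0.463, adjusted p = 0.233), but did so without WT caput replicate 1 (1.41 ± 0.379, adjusted p = 0.0204). Likewise Abcb5 in WT did not pass between caput and IS (-0.57 ± 0.436, adjusted p = 0.267), but was lower in caput without that replicate (-1.11, adjusted p = 0.00894) and by limma-voom with all samples (-0.85, adjusted p = 0.0278).

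In the testis, Abcb5 had 0, 1 and 1 counts in the WT samples and 15, 12 and 16 counts in the ArKI samples. At 3 counts or fewer, the WT samples are under the floor of this depth, and against a floor of 3 counts per library the ArKI level was at least 3.98-fold higher. Its counts were too few for the filter of the testis comparison, and an exact permutation test gave p = 0.1, two-sided, the smallest that 3 against 3 samples allow. Without that filter, edgeR called it at an adjusted p of 4.9e-05. The ArKI testis level, 0.939, 0.564 and 0.923 CPM, was still far below the lowest WT epididymal value of 5.0 CPM. Marker sums of IS principal cells were 20.8 to 22.7 CPM in WT testis and 21 to 22.4 CPM in ArKI testis. Those of caput principal cells were 56.7 to 61.8 and 36.4 to 45.0 CPM. These sums cannot decide whether epididymal RNA was present, because Abcb5 was itself higher in ArKI epididymis. An equal trace of it in both genotypes would therefore hold more Abcb5 in ArKI. The part of epididymal RNA in these counts was not tested.

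**Figure D3:**
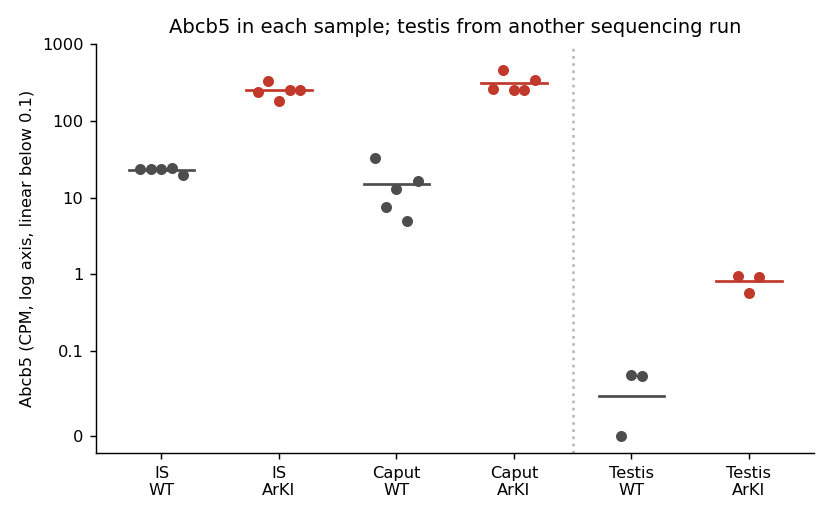
Abcb5 in CPM (y axis, log scale, linear below 0.1) in each of the 26 samples, with a line at the mean of each group. The ArKI samples lie above all WT samples of their tissue, at 182 to 457 CPM in the epididymis and at 0.564 to 0.939 CPM in the testis.

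The genes for P-glycoprotein itself moved in opposite directions. Mice have the pair Abcb1a and Abcb1b, neighbours on chromosome 5, of which Abcb1a is known from the blood-brain and blood-testis barriers and Abcb1b from steroidogenic tissue. Abcb1a in IS fell from 11.3, 11.3, 10.8, 12.6 and 7.41 CPM in WT to 5.54, 5.90, 3.28, 3.41 and 4.13 CPM in ArKI, with no overlap (log2 fold change -1.24 ± 0.182, adjusted p = 3.41e-05). In caput it fell from 11, 10.5, 9.46, 9.38 and 7.37 CPM to 8.55, 6.91, 8.06, 5.12 and 5.77 CPM, and the groups overlapped (-0.48 ± 0.155, adjusted p = 0.0277). The fall in caput did not pass when WT replicate 1 or 2 or ArKI replicate 4 or 5 was left out (adjusted p up to 0.0843).

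Abcb1b was low everywhere but went up. In caput it had 2.05, 1.74, 1.75, 1.10 and 1.75 CPM in WT and 4.82, 5.07, 4.87, 5.03 and 5.11 CPM in ArKI, which did not overlap (1.55 ± 0.184, adjusted p = 6.92e-06). In IS it had 2.41, 1.49, 1.86, 1.27 and 1.15 CPM in WT and 1.85, 4.78, 2.28, 2.39 and 4.13 CPM in ArKI (0.93 ± 0.296, adjusted p = 0.0221). Here the groups overlapped, and leaving out WT replicate 2, 4 or 5 or ArKI replicate 2 or 5 ended the call (adjusted p up to 0.0737). Abcb1a and Abcb1b are close paralogues counted from uniquely mapped 50-base reads, so reads that matched both equally were not counted for either. In testis neither passed the test, with means of 3.93 and 4.03 CPM for Abcb1a and 0.796 and 0.615 CPM for Abcb1b in WT and ArKI. Of the other ABCB genes of this group, the phospholipid flippase Abcb4 and Abcb11 were too low to be tested in the epididymis.

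Abcb1a is also known from the endothelium of capillaries, and endothelial markers moved with it in IS but not in caput. All 6 markers of endothelium fell in ArKI IS, where their sum went from 129 to 156 CPM in WT to 90.7 to 106 CPM in ArKI and their median log2 fold change was -0.489. In caput none fell and 2 rose, with sums of 53.3 to 62.6 CPM in WT and 66.3 to 93.9 CPM in ArKI, while Abcb1a fell there as well. The part of endothelial cells in the IS result was not tested.

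Among the ABCA genes, Abca6 rose in both segments. Abca6 belongs to the Abca5-related cluster on chromosome 11 and is regarded as a lipid transporter. In IS it had 2.53, 2.74, 1.98, 2.40 and 2.5 CPM in WT and 4.35, 3.93, 6.42, 5.97 and 5.90 CPM in ArKI (1.12 ± 0.197, adjusted p = 0.000231). In caput it had 2.56, 2.18, 3.5, 3.66 and 2.69 CPM in WT and 19.6, 17, 11.8, 14.3 and 17 CPM in ArKI (2.44 ± 0.170, adjusted p = 1.47e-08). The groups did not overlap in either segment, and the rise was larger in caput than in IS by the interaction test (1.33 ± 0.266, adjusted p = 0.000934). Of its relatives in the cluster, Abca5 fell in both segments, from 84.0 ± 8.0 to 73.3 ± 4.08 CPM in IS (-0.19 ± 0.0639, adjusted p = 0.0272), a call that 5 of 17 alternatives lost, and from 56.4 ± 2.07 to 39.8 ± 5.48 CPM in caput (-0.49 ± 0.0746, adjusted p = 9.73e-05). The IS call was lost with library size alone as the scaling (adjusted p = 0.0854) and without ArKI IS replicate 1 or 5 or WT IS replicate 3 or 4 (adjusted p up to 0.0801).

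Of the other genes of that cluster, Abca8b fell in caput from 4.50 ± 0.446 to 3.18 ± 0.605 CPM (-0.48 ± 0.171, adjusted p = 0.0434), a call that 12 of 17 alternative settings lost. Abca8a, with which it could share reads, had 10.9 ± 1.34 and 13.9 ± 2.38 CPM there, which did not pass (0.31 ± 0.121, adjusted p = 0.0669) except without WT caput replicate 5 or ArKI caput replicate 3. Abca9 passed in neither segment, with an adjusted p of 0.0671 in IS (-0.44 ± 0.178), where 2 of 17 alternatives called it. Fibroblast markers moved with Abca6 in part: 3 of 5 rose and 1 fell in ArKI IS (sums of 1060 to 1190 CPM in WT and 1150 to 1450 CPM in ArKI) and 1 of 5 rose in caput (695 to 770 and 818 to 1903 CPM). ArKI caput replicate 2, with the highest fibroblast sum, had 17 CPM of Abca6, within the range of the other 4. The part of these cells was not tested.

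Abca2, the most abundant member, fell in caput, where it had 1340, 1485, 1301, 1247 and 1449 CPM in WT and 1057, 908, 959, 1032 and 1109 CPM in ArKI. The groups did not overlap (-0.43 ± 0.0638, adjusted p = 7.74e-05). In IS the means were 328 and 320 CPM, and the groups overlapped (-0.03 ± 0.107, adjusted p = 0.852). The 2 changes differed by the interaction test (-0.40 ± 0.125, adjusted p = 0.0329), although 8 of 26 alternatives lost this call, all of them with 1 replicate left out. The surfactant lipid transporter Abca3 had log2 fold changes of -0.06 and 0.03 in IS and caput and passed in neither.

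Of the genes for cholesterol and phospholipid efflux, 1 of 3 tested fell in IS and 1 of 4 tested rose in caput. Abca1 had means of 370 and 400 CPM in IS (adjusted p = 0.114) and rose in caput from 258 ± 7.93 to 298 ± 30.0 CPM (0.21 ± 0.0618, adjusted p = 0.0166), with overlapping groups and no call without ArKI caput replicate 1 (adjusted p = 0.0502). Abca7 fell in IS, from 14.6, 14.2, 12.8, 10.7 and 12.2 CPM to 9.50, 8.43, 7.56, 6.65 and 9.56 CPM, with no overlap (-0.62 ± 0.126, adjusted p = 0.000937). It had 5.19 and 6.12 CPM in caput, which did not pass (adjusted p = 0.45), and the segments differed (0.80 ± 0.208, adjusted p = 0.00907). Abcg1 was level in both segments, with log2 fold changes of 0.09 and 0.01 that did not pass. Beside these transporters, 5 of 11 tested genes of sterol sensing and lipoprotein uptake fell in IS, where 14.6% of all genes fell, among them the apolipoprotein Apoe (-0.36 ± 0.0589). In caput, 2 of 11 rose, Srebf1 and the lysosomal cholesterol exporter Npc1 (0.29 ± 0.0617), and 1 fell, where 13.7% of all genes rose and 14.0% fell.

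Of the 6 ABCC exporters of this group tested for a difference between the segments, Abcc3 alone passed, a share near the 15.1% of all genes that did. Abcc3, a basolateral exporter of conjugated steroids and bile salts, had 47.0, 47.2, 40.7, 44.8 and 46.6 CPM in WT IS and 38.4, 45.4, 28.1, 31.4 and 39.2 CPM in ArKI IS, with overlap (-0.31 ± 0.0999, adjusted p = 0.0307). In caput it had 172, 168, 153, 137 and 176 CPM in WT and 237, 214, 197, 236 and 232 CPM in ArKI, without overlap (0.47 ± 0.0708, adjusted p = 8.41e-05). The difference between the segments was 0.78 ± 0.134 (adjusted p = 0.00036) and kept its call in all 26 alternatives, whereas the fall in IS alone was lost when any of 5 replicates was left out (adjusted p up to 0.0722).

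Abcc4 fell in IS from 174, 172, 171, 166 and 180 CPM to 136, 90.5, 118, 117 and 116 CPM, with no overlap (-0.58 ± 0.0776, adjusted p = 6.13e-05). In caput it had 17.3, 30.0, 47.0, 45.0 and 20.8 CPM in WT and 15.7, 8.06, 23.4, 17.5 and 14.8 CPM in ArKI, which did not pass (-0.94 ± 0.349, adjusted p = 0.0831). This fall in caput did pass in 4 of 17 alternatives, which were DESeq2 (adjusted p = 0.0245), the replicate block (0.0379), the fit of all 4 epididymal groups (0.0131) and the fit without WT caput replicate 1 (0.0393). A difference between the segments did not pass the interaction test (adjusted p = 0.554). Abcc2, the apical partner of Abcc3 in liver and kidney, was low and rose in IS from 1.69, 1.60, 1.36, 0.848 and 0.522 CPM in WT to 3.30, 1.97, 2.14, 3.07 and 1.89 CPM in ArKI (1.02 ± 0.308, adjusted p = 0.0154). These levels rest on 5 to 25 counts per library, and the call was lost without ArKI IS replicate 1 (adjusted p = 0.0519). In caput, Abcc2 had 0.103 to 0.654 CPM in WT (1 to 6 counts) and 0.723 to 1.62 CPM in ArKI (4 to 19 counts), without overlap. It was too low for the main test there, and was called only without the filter and in the fit of all 4 epididymal groups. Abcc1, Abcc5 and Abcc10 passed in neither segment, with log2 fold changes between -0.12 and -0.01.

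**Figure D4:**
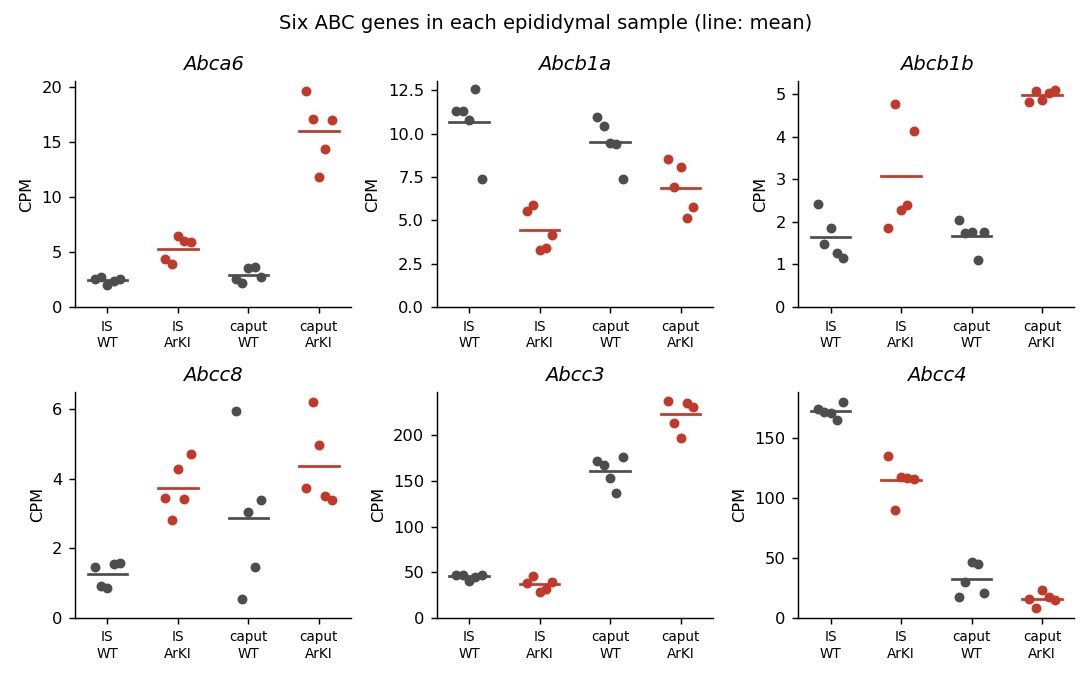
CPM (y axis, linear from 0, a scale for each gene) of Abca6, Abcb1a, Abcb1b, Abcc8, Abcc3 and Abcc4 in each of the 20 epididymal samples, with a line at the group mean. Abca6 and Abcb1b are higher in ArKI and Abcb1a is lower in both segments, and Abcc3 is lower in ArKI IS and higher in ArKI caput.

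The sulfonylurea receptors, the regulatory subunits of ATP-sensitive potassium channels, went in opposite directions in IS. Abcc8, the receptor of the pancreatic beta cell, had 1.45, 0.914, 0.868, 1.56 and 1.57 CPM in WT and 3.43, 2.81, 4.28, 3.41 and 4.72 CPM in ArKI, without overlap (1.55 ± 0.247, 2.94-fold, adjusted p = 7.68e-05). Kcnj11, which encodes the pore that pairs with it, rose from 92.2 to 119 CPM in the same samples (0.37 ± 0.0661, adjusted p = 0.000372). In caput, Abcc8 had 5.95, 0.545, 3.04, 1.46 and 3.39 CPM in WT and 3.73, 6.22, 4.96, 3.5 and 3.38 CPM in ArKI, which did not pass (0.53 ± 0.451, adjusted p = 0.434). The highest WT caput value was again in replicate 1, as for Abcb5.

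Abcc9 fell in IS from 5.67, 4.57, 6.33, 4.38 and 4.17 CPM to 3.43, 2.81, 4.14, 2.39 and 3.07 CPM, without overlap (-0.65 ± 0.197, adjusted p = 0.0162). The call was lost without WT IS replicate 3 (adjusted p = 0.0512). Its pore partner Kcnj8 had 1.93 and 1.07 CPM, which did not pass (adjusted p = 0.0678). Abcc9 is known from pericytes and smooth muscle, and all 6 markers of these cells fell in ArKI IS, with sums of 524 to 599 CPM in WT and 227 to 404 CPM in ArKI and a median log2 fold change of -1.006. None of them passed in caput, where Abcc9 had 10.7 and 9.85 CPM and did not pass either (adjusted p = 0.489). The part of these cells in the IS result was not tested. Exons of Abcc9 overlap those of 5330439B14Rik on the opposite strand, and the sources differ on whether the libraries kept strand.

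Of the 5 ABCB transporters of mitochondria and lysosomes, 2 fell in IS, where 14.6% of all genes fell, and 1 fell in caput, where 14.0% did. In IS, Abcb9 went from 151 ± 10.2 to 117 ± 16.7 CPM (-0.37 ± 0.0894, adjusted p = 0.00757). Of 6 IS principal cell markers, 1 rose and 2 fell, Etv4 and Etv5, with sums of 6340 to 7230 CPM in WT and 6580 to 8040 CPM in ArKI. The part of these cells was not tested. In caput, Abcb10, a mitochondrial transporter of heme metabolism, fell from 58.7 ± 4.03 to 47.7 ± 6.48 CPM (-0.28 ± 0.0782, adjusted p = 0.0132). Of the ABCF genes, Abcf2 fell in IS (-0.21 ± 0.054, adjusted p = 0.00553) and caput (-0.24 ± 0.0654, adjusted p = 0.0113) and Abcf3 in caput (-0.22 ± 0.0563, adjusted p = 0.00707).

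Of the remaining groups, Abcg2 rose in IS from 44.2 ± 2.63 to 54.3 ± 2.63 CPM without overlap (0.30 ± 0.0585, adjusted p = 0.000576), and had 14.7 and 15.9 CPM in caput, which did not pass (adjusted p = 0.48). It was the only ABCG gene of its role group that was expressed enough to be tested in the epididymis. Abcd3 was steady, with log2 fold changes of -0.03 and 0.03, and its peroxisomal import partners Pex3 and Pex19 did not pass in either segment.

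The change itself differed between the segments for 6 of 35 members tested in the interaction (edgeR, adjusted p below 0.05), where 15.1% of all 14329 genes did. They included Abca2, Abca6, Abca7, Abcb1a and Abcc3, and of these Abca2 alone had a negative difference, caput minus IS. Abcb1a fell less in caput than in IS (0.76 ± 0.251, adjusted p = 0.0403), a call that 13 of 26 alternatives lost.

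In the testis, no member changed. Of 47 tested, 0 passed at an adjusted p below 0.05, where 1.96% of all 15838 genes did, and 0 passed at the testis thresholds of the study, an adjusted p below 0.2 and more than 2-fold, where 0.833% did (edgeR). Abcb5 was not among those tested. At an unadjusted p below 0.05, 7 members differed, a share of 14.9% near the 13.1% of all genes, and neither limma-voom nor DESeq2 called any. The lowest adjusted p was 0.161, for Abca1, with 64.8, 53.4 and 70.0 CPM in WT and 70.5, 74.2 and 79.8 CPM in ArKI (0.25 ± 0.0845). Among the tested members, the WT and ArKI values did not overlap for 3 that were higher in ArKI (9.35% of all genes) and 5 that were lower (8.50%). Abcb5, not tested here, was also higher without overlap. The largest absolute log2 fold change of a tested member was 0.545, and the 5 genes of the testis set Abca14, Abca15, Abca16, Abca17 and Abcc12 had log2 fold changes from -0.13 to -0.10.

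The same testis genes were traced in caput, where spermatozoa carry residual RNA of spermatids. All 8 markers of sperm and spermatids fell in ArKI caput, with sums of 231 to 363 CPM in WT and 35.9 to 96.8 CPM in ArKI. Abca14 had 3, 3, 1, 3 and 3 counts in WT caput and 0, 0, 0, 1 and 0 in ArKI caput, Abca15 had 5, 3, 0, 1 and 1 counts against 0 in every ArKI sample, and Abcc12 had 7, 2, 3, 5 and 2 counts against 0, 0, 1, 2 and 1. These 3 genes were called only when the filter on low counts was left out. Abca16 and Abca17 were not called in any setting. Abca17 had 7, 2, 5, 2 and 9 counts in WT and 2, 2, 3, 0 and 4 in ArKI, with overlap. Abca16 had another pattern, with 3, 3, 4, 4 and 5 counts in WT and 3, 7, 2, 1 and 9 counts in ArKI. The part of sperm RNA was not tested.

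Genes of the wider pathways were counted from a list of 23. In IS, 2 rose and 5 fell of 20 tested, and in caput 3 rose and 2 fell of 20, beside the 15.0% and 14.6% of all genes in IS and the 13.7% and 14.0% in caput. The largest change among them was Cftr in caput, which fell from 13.4 to 5.82 CPM (-1.14 ± 0.179, adjusted p = 0.000176) and was level in IS at 190 and 193 CPM. The aryl hydrocarbon receptor Ahr, a sensor of foreign compounds that acts on ABC genes in other tissues, rose in IS (0.37 ± 0.0966) and in caput (0.30 ± 0.0941). The receptors Nr1i2 and Nr1i3, which induce P-glycoprotein genes in liver, had too few counts for the test in any tissue. The means of Nr1i2 were 0.167 CPM in WT IS and 1.2 CPM in ArKI IS, a difference that was not tested. In caput they were 0.0205 and 0.0354 CPM, and in testis 0.478 and 0.542 CPM.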

How the data were processed

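Total RNA of mouse IS, caput and testis was sequenced as 50-base single-end reads. According to the study's methods and the labels, the authors aligned reads to mm10 with STAR and counted uniquely mapped reads per RefSeq gene with subread (Subread 1.5.1 and bcl2fastq 1.8.4 in the submitters' processing notes). The labels name an unstranded kit and the methods a stranded one, so the strand of counting is unsettled. The deposited values are raw counts per gene. The members and gene lists were chosen with earlier results of these data known.

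Counts were analysed with R 4.3.3. Genes were kept by filterByExpr (minimum count 10, minimum total 15) and compared by edgeR 4.0.16 (TMM factors, robust quasi-likelihood test, Benjamini-Hochberg over all genes tested, two-sided). "Rose", "fell" and "changed" mean an adjusted p below 0.05. SEs were derived from the estimate and the F statistic. The test of the study (ROTS, modified t statistics) was not run, and limma 3.58.1 (voom) and DESeq2 1.42.0 were alternatives. Levels are CPM with TMM factors over the 20 epididymal or 6 testis samples. RPKM used exon unions of GENCODE M21 (GRCm38), found for 22872 of 23337 genes. Promoters were RefSeq's. The genes given in full were the members past the study's thresholds, the 10 largest other changes per tissue, those with an interaction, Abcb5, the 5 highest levels per tissue and the 5 largest WT segment differences each way. Abca5 in IS, Abca1 in testis and the set of testis genes stood outside that rule and were added after their values were seen. Values of 2 members and of other genes are not reported here, although counts include them. The edgeR, limma-voom and DESeq2 fits of each comparison were run on simulated counts, and the other settings were not. The simulated samples were independent and had the same dispersion for every gene, unlike the data. Samples of a group differed by more than counting noise (chi-square per degree of freedom of at least 2.43). By the study's methods the samples of a group came from separate mice, and IS and caput from the same ones. Other settings were another normalization (RLE), library size alone, no filter, a replicate block, all 4 epididymal groups in 1 fit, and leaving out each replicate.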

Additional observations from a re-analysis of the deposited data

Results flagged for a closer look

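Values that stood apart from the rest of their group by Dixon's criterion were found in 3 of 96 groups of 5 samples examined, where chance gives about 1 in 20, or 4.8. Abca7 was 3.53 CPM in WT caput replicate 4, against 5.54 to 5.67 CPM in the other 4. Abcb10 was 36.4 CPM in ArKI caput replicate 2, the shallowest library, against 48.4 to 52.4 CPM. Abcb5 was 19.4 CPM in WT IS replicate 5, against 23.2 to 24.5 CPM. The genotype effect differed between caput and IS (edgeR interaction, caput effect minus IS effect on the log2 scale) by 1.33 for Abca6, 0.80 for Abca7, 0.78 for Abcc3, 0.76 for Abcb1a and -0.40 for Abca2.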

How the results depend on the processing

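The 56 calls of members over the 5 comparisons kept their direction in every alternative. Of 127 results of members that were not called, 32 changed sign in at least 1, all with an absolute log2 value of at most 0.148. The members past the study's thresholds stayed at 4 in IS and 3 to 4 in caput. The number of members changed in IS was 15, and 13 to 17 under the 17 alternatives (13 to 16 with 1 replicate left out). In caput it was 13, and 11 to 17, the highest without the filter on low counts. The interaction gave 6, and 4 to 7, and the WT segments 22, and 21 to 24. In testis, 0 members changed and 0 passed the study's thresholds, but 1 did so in both counts without the filter, and 0 to 1 with 1 replicate left out. That member was Abcb5, which the filter removes in the fit of all 6 samples and which passes it with 1 replicate left out only through its ArKI counts, so the calls with 1 replicate left out add no support. Over all comparisons, the correlations of same-numbered samples ran from -0.188 to 0.202, and at most 3 of 5 pairs of any comparison exceeded 0.1. Between WT IS and WT caput they ran from -0.008 to 0.182. There, 3 of 5 IS samples correlated best with the same-numbered caput sample. Between ArKI IS and ArKI caput they ran from -0.117 to 0.197, and 2 of 5 did. Correlations this weak cannot decide whether replicate numbers pair the segments. With a replicate block, 16 members changed in IS (the same 15 and Abcf3) and 13 in caput, where Abca8b did not pass and Abcc4 did. The block added Abca5 to the same 6 of the interaction and Abcc8 to the same 22 of the WT segments. Abcb5 in WT passed between segments by limma-voom (-0.85), and its interaction passed without WT caput replicate 1 (1.41). Depth limits the members at or under 3 counts, of which 8 were in WT IS, 5 in WT caput and 1 in WT testis.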
